A study of Mus musculus with 3 samples.

Results

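The comparison set the heart ventricle of E13.5 embryos against that of E10.5 embryos. It covered the 11876 protein-coding loci, of 48626 loci and 20117 protein-coding loci in all, that reached 1 FPKM in at least 1 of the 2 libraries. FPKM is the number of sequenced fragments per kilobase of transcript, scaled to the size of the library. Both libraries were made from total RNA of C57BL/6 mouse heart ventricle, with no allele or treatment named for either, and differed by stage, E10.5 and E13.5 counting embryonic days. The number of embryos behind each library is not stated. The adult library of the study, from ventricle at 8 weeks of age, entered only where its level is given as a separate readout.

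Each stage had 1 library. No difference below therefore has a replicate check, no test was possible, and each value describes 2 libraries and not the stages in general. A difference is the difference of log2(FPKM + 1), E13.5 minus E10.5, so that 1 corresponds to about a doubling for well expressed loci and understates the change of low ones. A locus is called higher or lower at E13.5 when its difference reached 1 in size. In a bulk library, fewer cells of a type and less RNA per cell cannot be told apart.

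Between these stages the ventricle turns from a thin, largely trabeculated tube wall into a compacting, septating chamber. Trabeculae are muscular ridges that form toward the endocardium across a hyaluronan-rich matrix called cardiac jelly. The epicardium covers the outside and gives rise to fibroblasts and mural cells, the first coronary vessels form in the wall, macrophages settle in it, and the circulating red cells pass from the primitive yolk sac lineage to the definitive lineage of the fetal liver.

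Ventricular muscle markers were high in both libraries. Myl2, the ventricular regulatory myosin light chain, was at 7790 FPKM at E10.5 and 12217 at E13.5. Atrially enriched genes were also present. Myl7, the atrial regulatory light chain, was at 2453 and 1935 FPKM, and Sln, which encodes the atrial calcium pump inhibitor sarcolipin, was at 21.3 and 7.11. Of 8 members of the atrial list, Sln was lower and Nr2f1, at 0.393 and 2.65, higher, with a median difference of -0.08, or -0.40 centered on transcript length as described below, and their summed level was 6643 and 7067 FPKM. Nr2f1 was a member only through E13.5, which fixed its direction.

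At E13.5, 740 members were higher by 1 or more, which is 6.23% of all members, and 609 were lower, which is 5.13%. By 2 or more, 107 were higher and 31 lower, or 0.901% and 0.261%. The median difference was 0.18, the middle 50 percent of members lay between -0.22 and 0.51, and 63.2% of members lay above 0. This balance depends on the scaling of the libraries. With median-of-ratios scaling, which divides out a shift of 0.21, 515 were higher and 906 lower. With equal sums after leaving out globin and mitochondrially encoded loci, a shift of 0.31, 437 were higher and 1102 lower. The higher members thus made up 54.9%, 36.2% and 28.4% of the loci past 1 on the 3 scalings. Gene groups are therefore read against the median of all members.

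**Figure D1:**
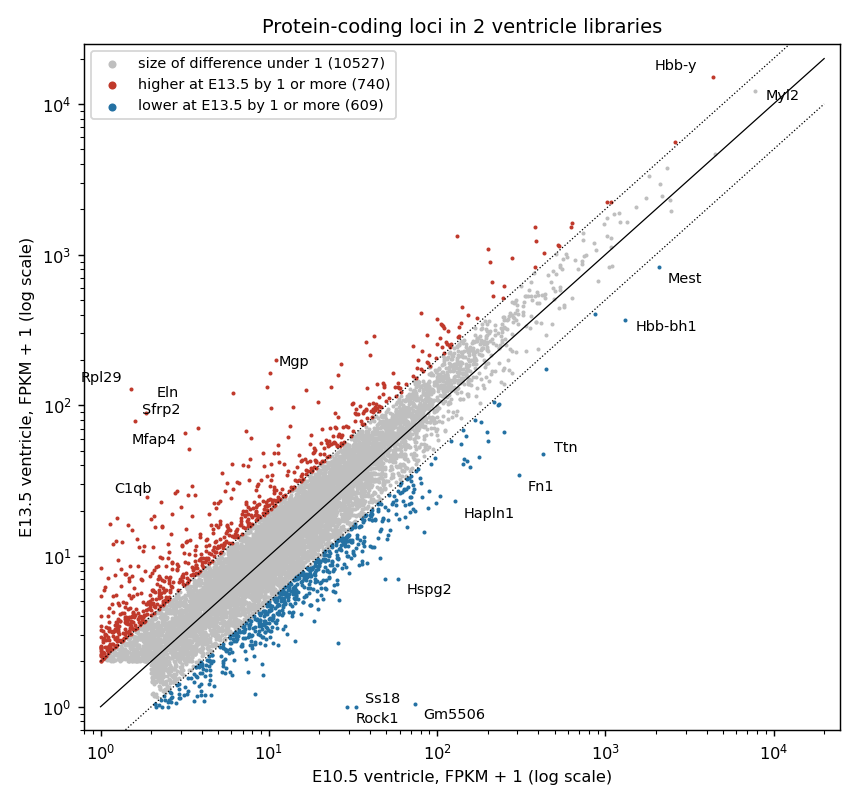
Level of each of the 11876 protein-coding loci in the 2 ventricle libraries, E10.5 on the horizontal and E13.5 on the vertical axis, both as FPKM + 1 on a log scale. The solid line marks equal levels, the dotted lines a difference of 1, and 740 loci lie above and 609 below them, with Sfrp2, Eln and Mgp far above and Ttn, Fn1 and Hspg2 far below.

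The difference also followed transcript length. The members were put in 10 bins of equal number by transcript length. In the shortest bin, with transcripts of 292 to 1211 nt, the median difference was 0.56, with 217 loci higher and 20 lower. In the longest bin, from 6453 nt upward, it was -0.47, with 13 higher and 218 lower. The median declined at every step between them, and crossed 0 in the bin from 4164 to 4972 nt. Among members of 11878 nt or longer it was -0.97. The same order held at each of 4 expression levels, where the shortest bin had medians of 0.46 to 0.60 and the longest of -0.57 to -0.38. The higher members had a median transcript length of 1864 nt and the lower members one of 5117 nt, against 3008 nt over all. Across all members Spearman's rho between difference and length was -0.50, as a description over loci of the same 2 libraries. GC content of the transcript showed a weaker relation, with rho of 0.18 and medians of 0.03 in the bin lowest in GC and 0.35 in the highest.

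Its cause was not tested, and stage and library cannot be told apart here. Each group is therefore also given as a length-centered difference, from which the median of its length bin was subtracted. On that scale 421 members were higher (3.54% of all) and 595 lower (5.01%), of which 371 and 421 were also past 1 on the deposited scale.

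**Figure D2:**
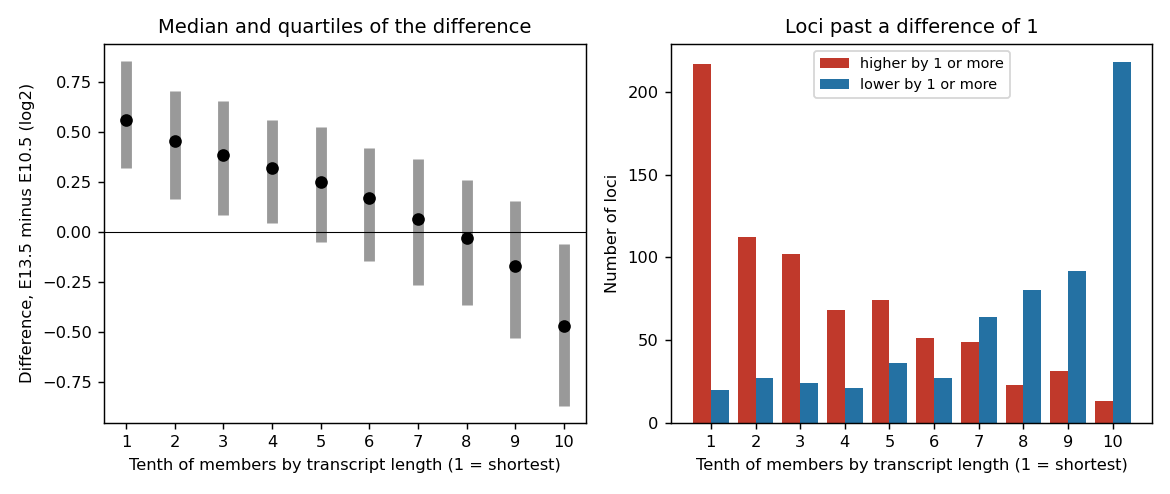
Left, median (points) and quartiles (bars) of the difference of log2(FPKM + 1), E13.5 minus E10.5, in 10 bins of the members by transcript length, from 0.56 in the shortest to -0.47 in the longest bin. Right, number of loci in each bin past a difference of 1, with 217 higher and 20 lower in the shortest and 13 higher and 218 lower in the longest.

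For 5 loci named below, the 250 bases before the RefSeq transcription start are shown (GRCm38.p6, the assembly of mm10, 5′ to 3′ on the strand of the gene). Sfrp2 and Ttn lie near the top and the bottom of the differences, Hbb-y and Hba-x are embryonic globin genes whose differences had opposite signs, and C1qb is a macrophage gene. The windows are chr3:83766071-83766320 on the plus strand for Sfrp2, chr2:76982548-76982797 on the minus strand for Ttn, chr7:103853208-103853457 on the minus strand for Hbb-y, chr11:32276350-32276599 on the plus strand for Hba-x and chr4:136886201-136886450 on the minus strand for C1qb. Capitals mark the core promoter element TATAAA or the box CCAAT on either strand.
Sfrp2: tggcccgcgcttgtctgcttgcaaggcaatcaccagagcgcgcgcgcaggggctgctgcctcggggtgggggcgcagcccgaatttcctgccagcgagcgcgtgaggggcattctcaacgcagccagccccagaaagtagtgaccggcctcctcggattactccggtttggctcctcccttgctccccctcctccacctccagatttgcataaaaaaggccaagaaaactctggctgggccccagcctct
Ttn: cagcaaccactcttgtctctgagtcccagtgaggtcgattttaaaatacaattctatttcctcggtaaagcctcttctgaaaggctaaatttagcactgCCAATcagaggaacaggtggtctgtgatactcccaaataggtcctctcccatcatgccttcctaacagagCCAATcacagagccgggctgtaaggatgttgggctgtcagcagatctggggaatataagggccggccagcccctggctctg
Hbb-y: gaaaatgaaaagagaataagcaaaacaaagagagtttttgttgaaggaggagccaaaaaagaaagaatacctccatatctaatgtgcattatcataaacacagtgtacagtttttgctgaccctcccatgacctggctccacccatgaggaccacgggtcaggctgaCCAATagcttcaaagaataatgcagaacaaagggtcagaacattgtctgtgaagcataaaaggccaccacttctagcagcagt
Hba-x: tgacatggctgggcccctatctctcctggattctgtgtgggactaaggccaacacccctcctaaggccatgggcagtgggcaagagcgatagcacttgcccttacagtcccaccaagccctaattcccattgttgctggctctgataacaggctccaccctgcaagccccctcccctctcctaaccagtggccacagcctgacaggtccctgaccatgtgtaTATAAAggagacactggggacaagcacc
C1qb: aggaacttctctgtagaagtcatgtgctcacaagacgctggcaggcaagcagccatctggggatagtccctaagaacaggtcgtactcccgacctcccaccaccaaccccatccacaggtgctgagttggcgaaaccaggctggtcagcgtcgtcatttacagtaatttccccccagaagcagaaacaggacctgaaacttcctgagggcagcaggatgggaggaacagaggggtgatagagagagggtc
Hba-x held TATAAA, which 12.4% of 32851 RefSeq promoter windows of this length hold. Ttn held CCAAT at 2 places and Hbb-y at 1, and 33.8% of windows hold it. Neither motif was found in the windows of Sfrp2 and C1qb, which says only that these letters are not in them. No window is shown for Eln, Mgp, Mfap4, Fn1 and Hbb-bh1. A match is a description of the letters and not of binding.

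Sfrp2, Eln and Mgp, genes of connective tissue, were among the 20 largest differences toward E13.5. Sfrp2 (chromosome 3, 83766321 to 83774314), a secreted Wnt modulator made by mesenchymal cells, was at 0.5997 FPKM at E10.5 and 77.8 at E13.5, a difference of 5.62. Eln (chromosome 5, 134702596 to 134747254), which encodes elastin, the rubber-like core of elastic fibers, was at 0.866 and 87.4 FPKM, a difference of 5.57. Mgp (chromosome 6, 136872435 to 136875805), the matrix Gla protein that inhibits calcification, was at 9.14 and 162 FPKM, a difference of 4.01. Centered on length, the differences of Sfrp2, Eln and Mgp were 5.24, 5.50 and 3.45. Mfap4, a microfibril-associated protein of elastic fibers, was at 2.38 and 50.3 FPKM. Meox1, a mesodermal homeobox factor, was at 0.880 and 23.8 FPKM.

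The other single-gene loci among the 20 largest differences were more mixed. Nts, the neurotensin precursor, was at 0.137 FPKM at E10.5 and 15.3 at E13.5. Pde1a, a calmodulin-dependent phosphodiesterase, was at 1.85 and 26.1 FPKM, and Crabp1, a cellular retinoic acid binding protein, at 1.79 and 25.3. Psd was at 0.545 and 13.8 FPKM, 2310037I24Rik at 9.28 and 94.7, Atp6v0c, a proton pump subunit, at 0.232 and 11.6, Dynlt1a at 0.250 and 17.0 and Vmn1r90 at 0.186 and 11.0. Another 5 of the 20 were ribosomal protein genes or Tpt1, with Rpl29 at 0.527 and 127 FPKM, Rps2 at 2.16 and 64.8, Rps18 at 5.12 and 120, Rpl3 at 8.76 and 132 and Tpt1 at 2.81 and 69.4. These have many near-identical processed copies among which fragments can be divided differently in each library, so their values are uncertain, as are those of Dynlt1a and Vmn1r90, which have close paralogs.

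Ttn, Fn1 and Hspg2, long transcripts of muscle and matrix, were among the 20 most negative differences. Ttn (chromosome 2, 76703384 to 76983691), the giant spring of the sarcomere, was at 428 FPKM at E10.5 and 46.8 at E13.5, a difference of -3.16, or -2.69 centered on length. Fn1 (chromosome 1, 71585396 to 71653250), which encodes fibronectin, was at 305 and 33.6 FPKM, a difference of -3.15, or -2.67 centered on length. Hspg2 (chromosome 4, 137468803 to 137570898), the basement membrane proteoglycan perlecan, was at 57.5 and 6.02 FPKM, a difference of -3.06, or -2.59 centered on length. All 3 lie in the longest bin, whose own median was -0.47, and stand well below it. Ttn and Hspg2 are also among the members of 11878 nt or longer, whose median was -0.97. Centering on the bin subtracts less than that from them.

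The others of the 20 most negative single-gene loci were of mixed length and function. Lpl, the lipoprotein lipase of muscle and fat, was at 82.8 FPKM at E10.5 and 13.3 at E13.5. Hapln1, a link protein that holds versican to hyaluronan in cardiac jelly, was at 127 and 22.0 FPKM. Cck, a peptide hormone gene expressed in the young heart tube, was at 7.29 and 0.224, and Ckmt2, the sarcomeric mitochondrial creatine kinase, at 23.9 and 4.76. Mid1, an X-linked ubiquitin ligase gene, was at 24.6 and 1.65, Aldh1a1, a retinaldehyde dehydrogenase, at 18.5 and 3.47, Palld, an actin crosslinker, at 97.1 and 21.5, and Tgfbr3, the betaglycan coreceptor, at 44.7 and 8.70. Myom2, an M-band protein, was at 8.20 and 0.636, Polr2a, the largest subunit of RNA polymerase II, at 24.97 and 4.13, and the splicing genes Srrm2 and Cwc22 at 65.7 and 14.6 and at 48.4 and 6.04. Kcnh7 was at 17.6 and 2.69, Fign at 8.11 and 0.916 and Ly75 at 10.3 and 1.56. Gm5506, at 72.5 and 0.0387 FPKM, is a copy of the enolase gene Eno1, and Rps28, at 13.4 and 1.75, has near-identical copies, so both are uncertain.

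A further 22 members were listed at 0 in 1 library, 17 at E10.5 and 5 at E13.5, and no fold is given for them. An exact 0 in such a table can be a failed estimate, since Ttn and the joined Myh6/Myh7 locus are listed at 0 in the adult library. Rock1, a kinase gene of the actomyosin cytoskeleton, was at 28.0 FPKM at E10.5 and listed at 0 at E13.5, and Ss18, a chromatin remodeling subunit gene, was at 32.0 FPKM and listed at 0. Hist1h2aa, Scgb1c1 and Bcl2l10 were at 1.13 to 1.52 FPKM at E10.5 and listed at 0 at E13.5. In the other direction Cd52, a leukocyte surface antigen, was listed at 0 at E10.5 and was at 7.34 FPKM at E13.5. Gkn3 was at 4.42, Cacng7 at 3.002, Sntg2 at 2.43, Hoxa5 at 2.24, Stfa1 at 1.93, Stfa2l1 at 1.52, Lgals7 at 1.5001, Dct at 1.49, Tac2 at 1.46, Defb25 at 1.41 and D830030K20Rik at 1.33 FPKM. The remaining 5, Hoxa4, Hoxa2, Crygb, Expi and Stfa2, were at 1.25, 1.21, 1.19, 1.02 and 1.00 FPKM.

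Extracellular matrix genes are given first in groups that were drawn up after the values had been seen. The opposite signs of these groups therefore describe how the genes were sorted and are no independent result. Elastic fiber genes were higher at E13.5 in part, with 13 of 21 members above 0 and 8 below. Over all members 63.2% lay above 0. Of the 21, 8 were higher by 1 or more and 2 lower, with a median difference of 0.77 against 0.18 over all members, and 0.58 centered on length. Beside Eln and Mfap4 they included Fbln5, a fibulin that assembles elastin, at 0.457 and 15.1 FPKM, and Lox, the enzyme that crosslinks elastin and collagen, at 1.12 and 14.6. Mfap2 was at 8.33 and 38.6, Loxl1 at 5.85 and 16.0 and Fbln2 at 25.8 and 60.9. Eln and Fbln5 were members only through E13.5, which fixed their direction. Of the 19 elastic fiber members at 1 FPKM or more in both libraries 6 were higher and 2 lower. The fibrillins, which form the microfibril scaffold, were the 2 lower members, with Fbn1 at 62.4 and 26.5 FPKM and Fbn2 at 68.2 and 23.6. Centered on length the difference was -0.73 for Fbn1 and -1.02 for Fbn2.

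Among the 9 fibrillar collagens 3 were higher and 1 lower, and 6 were higher after centering on length. Col1a2, a chain of type I collagen, was at 30.4 and 100.4 FPKM, a difference of 1.69. Col1a1, the other chain, was at 10.7 and 21.4, and Col3a1, of type III collagen, at 124 and 211. These last 2 reached differences of 0.93 and 0.77. Col2a1, the cartilage and cushion collagen, went the other way with 33.2 and 7.70 FPKM. Over all 30 collagen members 8 were higher and 3 lower, with a median difference of 0.53, and 13 and 3 with a median of 0.76 centered on length. Relative to that of all members the median was 0.35, but -0.03 among the loci at 5 FPKM or more in either library. The 3 genes of type IX collagen, Col9a1, Col9a2 and Col9a3, were at 1.67, 1.20 and 1.89 FPKM at E10.5 and at 18.0, 6.06 and 7.60 at E13.5. Col16a1, Col6a3, Col24a1 and Col27a1 were the other collagens past 1, and the 3 below -1 were Col2a1, Col4a1 and Col4a2. Col6a3 and Col24a1 were members only through E13.5, which fixed their direction. At 1 FPKM or more in both libraries 6 of 25 collagens were higher and 3 lower. Of the 8 fibrillar collagens at that level 2 were higher and 1 lower.

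Basement membrane genes were lower at E13.5. Of 18 members, 9 were lower by 1 or more and none was higher, with a median difference of -1.07, or -0.85 centered on length with 8 lower. Of the 16 at 1 FPKM or more in both libraries 8 were lower and none higher. Lama1, below 1 FPKM at E13.5, was not among them. Col4a1 and Col4a2, the chains of the ubiquitous type IV collagen network, were at 143 and 88.8 FPKM at E10.5 and at 43.2 and 26.2 at E13.5. The laminin chain Lamc1 was at 68.8 and 21.4, Lama5 at 8.60 and 2.39 and Lama1 at 2.86 and 0.364. The linker proteins Nid1 and Nid2 were at 53.5 and 52.9 FPKM at E10.5 and at 21.7 and 21.1 at E13.5, and Agrn, the proteoglycan agrin, at 35.6 and 12.4. Basement membrane transcripts are long, with a median of 6520.5 nt.

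Cardiac jelly genes were mixed. Vcan, the large proteoglycan versican, was at 249 FPKM at E10.5 and 65.8 at E13.5, and Hapln1, given above, was lower as well. Has2, which makes hyaluronan, was at 16.2 and 17.0. The enzymes that cut versican, Adamts1 and Adamts5, were at 28.1 and 2.23 FPKM at E10.5 and at 47.3 and 4.15 at E13.5, differences of 0.73 and 0.68 that did not reach 1. The elastic fiber, fibrillar collagen, basement membrane and cardiac jelly lists were drawn up after the values had been seen, and describe how the broader collagen and matrix lists split. In the broader list of 38 matrix glycoproteins and proteoglycans 9 were higher and 12 lower, with a median of 0.18, equal to that of all members to the second decimal, and on either other scaling below 0. The higher ones beyond those named were Lum, Postn, Thbs2, Tnc and Spock3. At 1 FPKM or more in both libraries 5 of 33 members of this broader list were higher and 11 lower.

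**Figure D3:**
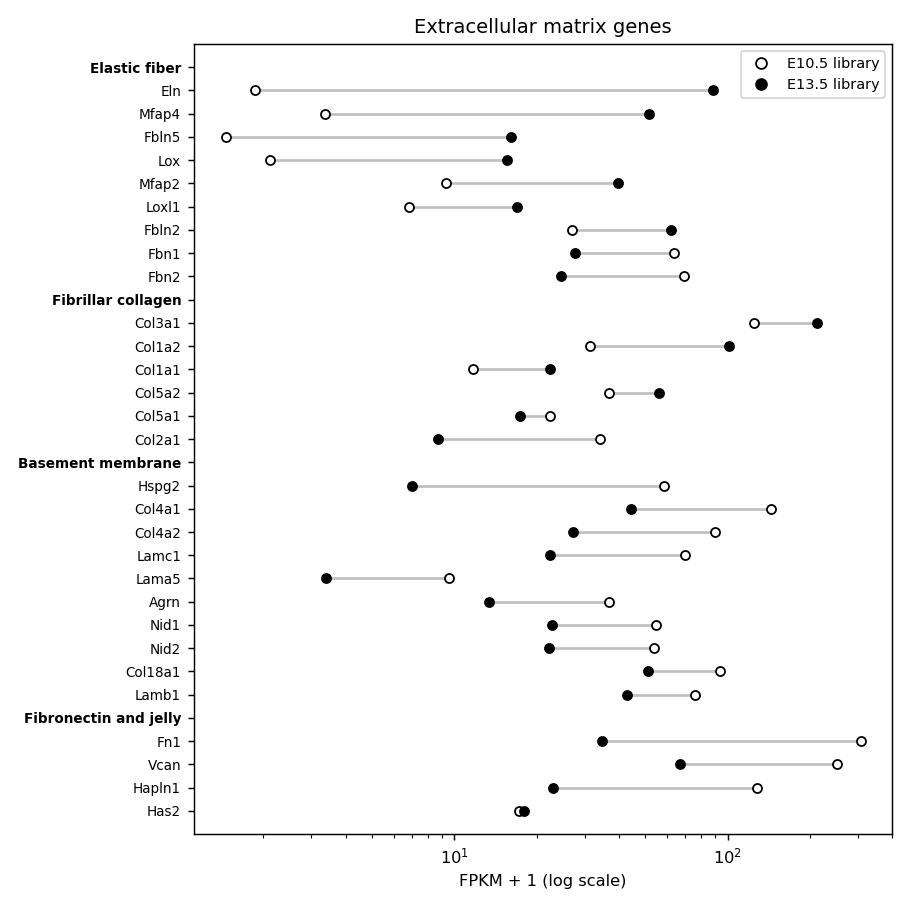
Level of extracellular matrix genes in the E10.5 library (open points) and the E13.5 library (filled points), as FPKM + 1 on a log scale. Elastin and most of the elastic fiber and fibrillar collagen genes drawn lie to the right at E13.5, while perlecan, type IV collagen, laminin and nidogen genes, fibronectin, versican and Hapln1 lie to the left.

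Fibroblast and mural cell precursor genes were higher as a group. Of 25 members 13 were higher and 2 lower, and the median difference of 1.03 was 1.04 centered on length. Their summed level was 751 FPKM at E10.5 and 1484 at E13.5. Postn, the matricellular protein periostin of cushions and fibroblasts, was at 25.8 and 188 FPKM, Lum, the collagen-binding proteoglycan lumican, at 6.31 and 66.3, and Islr at 0.658 and 11.9. The receptors Pdgfra and Ddr2 were at 11.8 and 1.58 FPKM at E10.5 and at 33.3 and 4.75 at E13.5. Serpinf1 and Mfap5 were the remaining single-gene members past 1. Thy1 was the second lower member beside Fbn1, at 2.61 and 0.454. Among the 22 fibroblast and mural cell members at 1 FPKM or more in both libraries 11 were higher and 1 lower. The filter fixed the direction of the others, Islr and Thy1 among them. The epicardium, from which many of these cells descend, showed no such difference. Of 15 members 2 were higher and 1 lower, with a median of -0.11. Wt1 and Tbx18, transcription factors of the epicardium, were at 8.74 and 33.1 FPKM at E10.5 and at 9.53 and 28.8 at E13.5, and Tcf21 at 18.3 and 22.9. Msln was the higher single-gene member, at 0.555 and 3.24, the other being a locus of joined keratin genes, and Podxl the lower, at 35.7 and 11.6. Msln was a member only through E13.5, which fixed its direction. Among the 14 epicardial members at 1 FPKM or more in both libraries 1 was higher and 1 lower.

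Cushion and valve mesenchyme genes were divided. Of 19 members 7 were higher and 3 lower, with a median of 0.39, or 0.24 centered on length, and their summed level was 515 and 504 FPKM. Beside Postn the higher ones were Cthrc1, at 6.78 and 42.8 FPKM, Papss2, a sulfate donor enzyme, at 3.83 and 19.7, the transcription factors Prrx1, Scx and Twist1, at 2.04 and 10.8, 1.67 and 8.17 and 9.16 and 23.0, and Tgfbi at 16.5 and 54.6. Sox9, Snai1 and Tgfb2, which act in cushion formation, had differences of -0.25, 0.02 and 0.05. Nfatc1, the endocardial factor of valve growth, was lower, at 15.6 and 4.44 FPKM, with Vcan and Hapln1.

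Vascular genes were mixed. Of 25 endothelial and endocardial members 1 was higher and 6 lower, with a median of -0.20, or -0.29 centered on length with 1 and 7. Cldn5, a tight junction claudin, was at 0.818 and 10.7 FPKM. It was a member only through E13.5, so that its direction was fixed by the filter. Among the 22 members at 1 FPKM or more in both libraries none was higher and 6 were lower. Cdh5, the endothelial cadherin, was at 50.2 and 12.9, Kdr, the main VEGF receptor, at 48.1 and 20.3, Vwf, von Willebrand factor, at 11.4 and 2.44 and Eng, endoglin, at 41.5 and 16.6, while Pecam1 was at 46.5 and 47.6 and Emcn at 68.3 and 63.8. In the coronary and capillary list 5 of 19 were higher and 2 lower, with a median of 0.47, or 0.21 centered on length. The higher ones beside Mgp were Apln, a ligand of sprouting vessels, at 0.344 and 3.16 FPKM, Cxcl12, a chemokine, at 23.6 and 70.4, the water channel Aqp1 at 7.41 and 20.01, and Tcf15 at 0.520 and 2.37. Lpl and Car4, the latter at 3.61 and 1.19, were lower. Apln and Tcf15 were members only through E13.5, which fixed their direction. Among the 16 coronary and capillary members at 1 FPKM or more in both libraries 3 were higher and 2 lower. Of 12 smooth muscle and pericyte members 2 were higher, Rgs4 at 0.481 and 6.17 FPKM and Rgs5 at 9.81 and 47.2, and 2 lower, Abcc9 at 51.4 and 13.8 and Cspg4 at 17.4 and 5.03. Their median was 0.38, and relative to that of all members it was 0.20, or -0.03 with 1 FPKM required in both libraries. Rgs4 was a member only through E13.5, which fixed its direction. Of the 11 smooth muscle and pericyte members at 1 FPKM or more in both libraries 1 was higher and 2 lower. Prox1, the lymphatic and cardiac muscle factor, was at 17.2 and 7.49 FPKM, and Pdpn, podoplanin, at 7.57 and 17.3, and no other of the 6 lymphatic members reached 1 in either direction.

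Macrophage genes had the highest median on the deposited scale of the lists with 4 or more members. Of 27 members 17 were higher and none lower, with a median difference of 1.44, or 1.08 centered on length with 15 and 1. However, 11 of the 27 were below 1 FPKM at E10.5 and were members only through E13.5, so that their direction was fixed by the filter. Among the 16 members at 1 FPKM or more in both libraries 7 were higher and none lower, and the median relative to that of all members was 0.45 in place of 1.25. The 3 genes of complement component C1q, which neighbor each other on chromosome 4, were at 2.49 (C1qa), 1.29 (C1qb) and 1.00 FPKM (C1qc) at E10.5 and at 17.4, 21.9 and 16.7 at E13.5. The lysosomal protease gene Ctss was at 1.06 and 17.5, the signaling adapters Tyrobp and Fcer1g at 1.31 and 14.9 and at 0.688 and 10.54, and Csf1r, the receptor for the macrophage growth factor, at 0.729 and 6.01. Cx3cr1, the fractalkine receptor, was at 0.181 and 4.45, Trem2 at 0.125 and 2.65 and Emr1, which encodes the F4/80 antigen, at 0.511 and 4.24. The summed level of all 32 loci of the list was 226 and 550 FPKM, of which the lipid carrier gene Apoe gave 103 and 281. Among the members that did not reach 1 were Lyz2 at 32.5 and 43.6 FPKM, Lgmn at 46.5 and 58.8 and Stab1 at 13.2 and 7.75.

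The low levels at E10.5 rest on few fragments. At the approximate depth, C1qb had about 18.6 fragments at E10.5 and 601 at E13.5, and Csf1r about 38.3 and 601. Ccr2, a gene of recruited monocytes, was at 0.264 and 0.270 FPKM, and Cd14 was at 0.194 and 0.427. Of 15 members of the list of other leukocyte, megakaryocyte and mast cell genes 6 were members only through E13.5. In the list 6 were higher, among them S100a8 and S100a9, the calprotectin subunits of neutrophils, at 0.270 and 8.46 and at 0.239 and 4.52 FPKM, and Coro1a at 1.25 and 6.16. Kit, the stem cell factor receptor, was the 1 lower, at 6.16 and 2.20. Among the 9 members at 1 FPKM or more in both libraries 2 were higher and 1 lower. The filter fixed the direction of the other 6, S100a8 and S100a9 among them. Pf4 and Ppbp, of platelets and megakaryocytes, had differences of 0.68 and 0.41. In the list of histocompatibility and interferon genes Bst2 was at 1.64 and 12.999 FPKM and H2-Ab1 at 0.758 and 5.91. Lower were Cd74, at 2.74 and 0.586, and the joined Ly6a/Ly6c1/Ly6c2 locus, which holds a monocyte gene, at 6.51 and 0.704. H2-Ab1, Cd74 and the joined Ly6 locus reached 1 FPKM in 1 library only, which fixed their direction. Of the 8 histocompatibility and interferon members at 1 FPKM or more in both libraries 1 was higher and none lower.

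Globin genes held some of the highest levels. Hbb-y (chromosome 7, 103851754 to 103853207), the embryonic epsilon-type beta globin, was at 4356 FPKM at E10.5 and 15112 at E13.5, where it was the highest of all members. Hbb-bh1 (chromosome 7, 103841638 to 103843162), the other embryonic beta globin, was at 1314 and 366 FPKM. Hba-x (chromosome 11, 32276600 to 32278115), the embryonic alpha-type zeta globin, was at 1057 and 827. The 2 embryonic beta globins thus stood in opposite directions, with differences of 1.79 and -1.84, and the adult genes were all higher. The joined adult beta globin locus Beta-s/Hbb-b1/Hbb-b2 was at 131 and 1320 FPKM. The 2 loci of Hba-a1/Hba-a2 were at 382 and 1533 and at 10.1 and 199. Their sequences are nearly identical, so the split between these 2 is uncertain. In the adult ventricle Hbb-y was at 2.87 FPKM and Beta-s/Hbb-b1/Hbb-b2 at 1423.

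Other red cell genes did not follow the globins. Of 27 erythroid members 2 were higher, Trim10 at 2.36 and 5.97 FPKM and Bpgm at 17.1 and 36.1, and 2 lower, Hemgn at 6.33 and 1.08 and Tfrc, the transferrin receptor, at 72.2 and 27.1. The median difference was -0.21, or -0.32 centered on length, and the summed level 275 and 268 FPKM. Alas2, the heme synthesis enzyme of red cells, was at 18.2 and 34.1, Slc4a1, the band 3 anion exchanger, at 19.0 and 17.0, and the erythroid factors Gata1 and Klf1 at 2.72 and 1.40 and at 3.61 and 1.60. The amount of blood in each library was not measured.

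**Figure D4:**
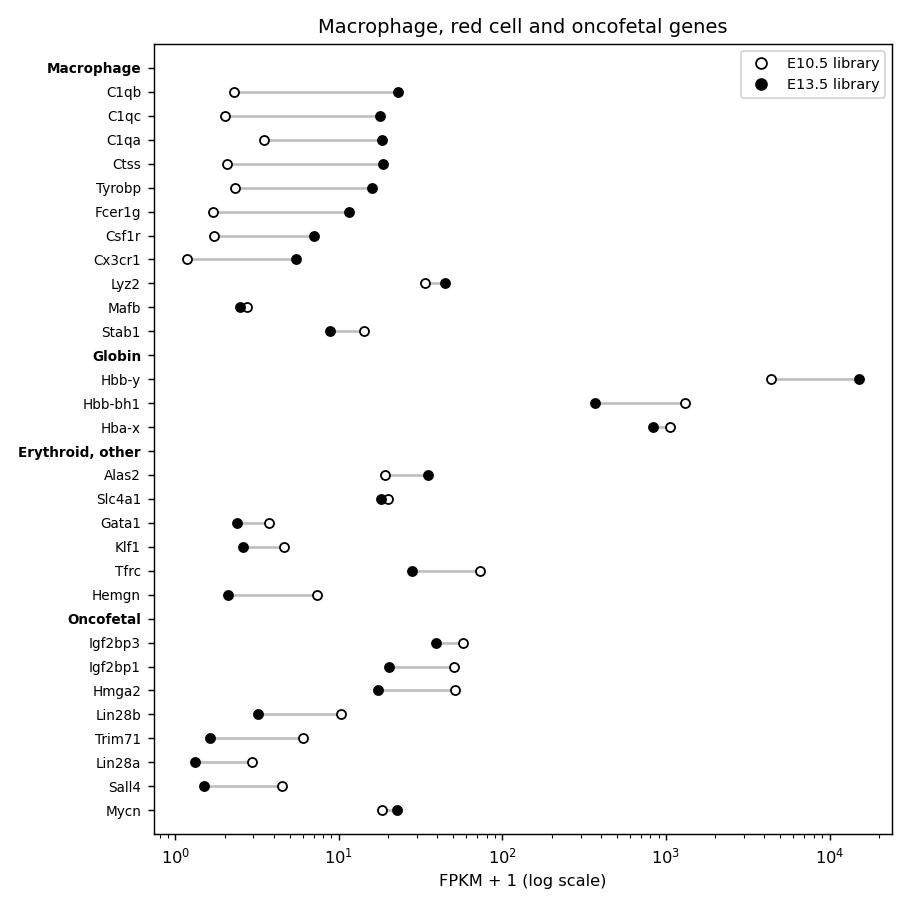
Level of macrophage, embryonic globin, other erythroid and oncofetal genes in the E10.5 library (open points) and the E13.5 library (filled points), as FPKM + 1 on a log scale. The C1q genes, Ctss, Tyrobp, Fcer1g, Csf1r and Cx3cr1 lie to the right at E13.5, and Stab1 lies to the left. Hbb-y and Hbb-bh1 lie in opposite directions, and the oncofetal genes other than Mycn lie to the left.

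Oncofetal RNA-binding and growth genes had the lowest median of the lists with 4 or more members. Of 13 members 7 were lower and none higher, with a median of -1.16, or -1.23 centered on length, where 7 were lower too. Another 4 of the 13 were below 1 FPKM at E13.5 and were members only through E10.5, and of the 9 at 1 FPKM or more in both libraries 4 were lower. Lin28b and Lin28a, which block maturation of let-7 microRNAs, were at 9.31 and 1.92 FPKM at E10.5 and at 2.20 and 0.309 at E13.5. Trim71, a let-7 target of stem cells, was at 5.003 and 0.618, Hmga2, a chromatin protein and let-7 target, at 50.0 and 16.3, Igf2bp1, an mRNA-binding protein, at 49.8 and 19.2, Sall4 at 3.50 and 0.504 and Arid3b at 9.38 and 3.47. Mycn was the 1 member with a difference above 0, at 17.3 and 21.7. Imprinted growth regulators leaned the same way. Of 18 members 7 were lower and none higher, with a median of -0.31, or -0.62 centered on length with 4 lower. Mest (chromosome 6, 30733506 to 30752404) was at 2074 and 833 FPKM, Igf2r, which clears the growth factor Igf2, at 444 and 173, Plagl1, a zinc finger regulator of the imprinted group, at 150 and 41.8, Peg3 at 147 and 61.3 and Peg10 at 23.3 and 5.39. Usp29 and Zim1 completed the 7. Igf2 itself was at 566 and 451 and Cdkn1c, a cell cycle inhibitor, at 899 and 669, neither past 1.

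Cell cycle genes were almost level. None of 34 DNA replication members and none of 30 mitosis members reached 1 in either direction. The medians were 0.17 and 0.35, or -0.14 and 0.06 centered on length, and the former lies below 0 on both other scalings. Mki67, a marker of cycling cells, was at 34.9 and 25.9 FPKM, Top2a at 113 and 131, Ccnb1 at 37.4 and 47.2 and Pcna at 108 and 123. Among D cyclins and inhibitors, Ccnd2 was at 155 and 37.8, a difference of -2.01, Ccnd1 was at 49.0 and 63.5 and Ccnd3 at 106 and 114, and Cdkn2c was higher, at 4.005 and 10.6. Histone cluster genes, whose transcripts lack a poly(A) tail and are retained in total RNA libraries, were higher in 30 of 55 members and lower in 2, with a median of 1.06. Centered on length this became 17 and 4 with a median of 0.53. Hist1h4c was at 199.6 and 1084 FPKM and Hist1h1a, a linker histone gene, at 509 and 1014. Many of these genes are near-identical, so single values are uncertain.

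Sarcomere genes were divided. Of 31 members 5 were higher and 5 lower, with a median of 0.16, below 0 on both other scalings and -0.25 centered on length. Tnnt1 and Tnnt2, the slow skeletal and the cardiac troponin T, were at 78.8 and 626 FPKM at E10.5 and at 409 and 1522 at E13.5. Myl3, the ventricular essential light chain, was at 1087 and 2238, Myoz2, a Z-disc protein, at 47.6 and 135, and the joined locus 6030429G01Rik/Tnni3, which holds the adult troponin I, at 533 and 1137. Tnni1, the fetal troponin I, was at 2425 and 2289. Centered on length only Tnnt1 and Myoz2 stayed above 1. The lower ones were Ttn, Myom2, Synpo2l, Nebl and Xirp1, of which the last 3 were at 54.8, 167 and 31.7 FPKM at E10.5 and at 23.9, 79.1 and 14.9 at E13.5. Myom2 was a member only through E10.5, which fixed its direction. Actc1, the cardiac actin, was at 4487 and 4646, and the joined Myh6/Myh7 locus of the myosin heavy chains at 1029 and 1329.

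Calcium handling and ion channel genes stood lower against all members. In calcium handling 2 of 18 were higher and 4 lower, with a median of -0.28, or -0.30 centered on length with 0 and 3. Casq2, the calcium store of the sarcoplasmic reticulum, was at 21.8 and 53.5 FPKM and S100a1 at 88.1 and 214. Ryr2, the calcium release channel, was at 73.1 and 18.8, Slc8a1, the sodium-calcium exchanger, at 231 and 102, Itpr1 at 28.7 and 12.5 and Sln at 21.3 and 7.11, while Pln, phospholamban, was at 505 and 745 and Atp2a2, the calcium pump it inhibits, at 337 and 228. Of 24 ion channel and connexin members 4 were higher and 4 lower, with a median of -0.34. The higher ones were Fxyd1 at 99.2 and 374 FPKM, Kcne1 at 4.84 and 12.8, Kcnj2, the inward rectifier that sets resting potential, at 4.21 and 10.8, and Cacna1g at 0.262 and 2.15. Below -1 were Scn4b at 3.18 and 0.191, Kcnip2 at 2.74 and 0.175, Cacna2d2 at 20.1 and 5.90 and Cacna1h at 13.47 and 6.22. Cacna1g, Scn4b and Kcnip2 reached 1 FPKM in 1 library only, which fixed their direction. Of the 21 ion channel and connexin members at 1 FPKM or more in both libraries 3 were higher and 2 lower. Hcn4, the pacemaker channel, was at 4.55 and 2.41. None of 17 adrenergic, muscarinic and hormone receptor members reached 1, against 6.23% higher and 5.13% lower over all members, which is near that for so few.

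Trabecular genes were lower in part. Of 16 members 6 were lower and none higher, with a median of -0.74, or -0.55 centered on length, where 6 were lower too. Nrg1, the endocardial neuregulin that drives trabeculation, was at 7.77 and 2.20 FPKM and its receptor Erbb4 at 30.8 and 9.81. Notch1 was at 15.2 and 4.35, Bmp10, a trabecular growth factor, at 57.2 and 26.2, Hand1 at 26.2 and 7.36 and Sema3a at 27.7 and 9.66. Some genes that mark formed trabeculae and the conduction system stood the other way on the deposited scale without reaching 1. Nppa was at 1744 and 2385, Nppb at 182 and 271 and Gja5 at 36.7 and 71.2. Centered on length the difference of Nppa was -0.11. Of 12 compact myocardium members Fgfr2 was higher, at 4.83 and 11.2, Ccnd2 and Tead1 were lower, Tead1 at 49.5 and 11.9, and Hey2, a compact wall factor, was at 43.1 and 73.2. Of the 35 cardiac transcription factors 4 were higher and 6 lower, with a median of 0.02, below 0 on both other scalings and centered on length. Isl1, of the second heart field and pacemaker, was at 0.291 and 3.76 FPKM, Shox2, of the pacemaker, at 0.301 and 2.69, and Nr2f1, of the atria, at 0.393 and 2.65, and all 3 were higher. Besides Hand1 and Tead1 the lower ones were Zfpm2 at 19.3 and 5.78, Sall4, Myocd at 29.4 and 11.7 and Gata5 at 17.7 and 7.71. Isl1, Shox2 and Nr2f1 were members only through E13.5, which fixed their direction. Among the 30 cardiac transcription factors at 1 FPKM or more in both libraries 1 was higher and 5 lower. Nkx2-5, Gata4 and Tbx5 were at 46.8, 63.6 and 14.5 FPKM at E10.5 and at 61.1, 43.0 and 7.80 at E13.5. Fgf10, of the second heart field, was at 1.93 and 0.208.

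Among signaling genes, BMP and TGF-beta, Wnt and retinoic acid lists held the most higher members. At 1 FPKM or more in both libraries 6 of 18, 4 of 23 and 5 of 12 members were higher. In the same order 2, none and 1 were lower. The filter fixed the direction of the others, among them Fst, Inhba, Sfrp2, Dkk2, Crabp2 and Tcf7. Of 20 BMP and TGF-beta members 8 were higher and 2 lower, with a median of 0.78, or 0.49 centered on length. The activin antagonists Fstl3 and Fst were at 1.31 and 0.523 FPKM at E10.5 and at 8.66 and 2.64 at E13.5, the ligands Bmp4, Tgfb3 and Inhba at 6.205 and 17.9, 4.44 and 12.4 and 0.396 and 2.97, and the BMP target genes Id1, Id3 and Id4 at 24.4 and 53.8, 57.9 and 140 and 2.92 and 8.56. Tgfb1, at 8.25 and 1.88, and Bmp10 were lower. Of 27 Wnt members 6 were higher and 1 lower, with a median of 0.41, or 0.16 centered on length. Relative to that of all members it was 0.23, or -0.06 with 1 FPKM required in both libraries. The higher ones were the secreted antagonists Sfrp2, Sfrp1, Frzb and Dkk2, the enhancer Rspo3 and the receptor Fzd1, and beyond Sfrp2 their values were 11.4 and 39.8, 2.14 and 9.53, 0.709 and 2.97, 2.72 and 10.6 and 9.12 and 28.0 FPKM. Tcf7 was lower, at 2.58 and 0.653, and Axin2, a general Wnt target, was at 1.48 and 2.45. In the retinoic acid pathway 6 of 14 were higher and 1 lower, with a median of 0.80, or 0.74 centered on length. Crabp2, a cellular retinoic acid binding protein, was at 0.955 and 6.40, the retinaldehyde reductase Dhrs3 at 2.90 and 12.99, the dehydrogenase Rdh10 at 2.25 and 5.62 and the receptor Rarg at 1.67 and 5.25. Aldh1a2, the epicardial enzyme that makes retinoic acid, was at 14.7 and 23.0.

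The remaining signaling lists held fewer differences. Among 32 members for FGF, neuregulin, PDGF, VEGF and IGF signaling, Pdgfb, Angpt2, Fgfr2 and Igf1 were higher, with Pdgfb at 0.781 and 3.35 FPKM and Igf1 at 10.7 and 22.8, and Erbb4, Nrg1 and Fgf10 were lower. Pdgfb, Angpt2 and Fgf10 reached 1 FPKM in 1 library only, which fixed their direction. Of the 28 members at 1 FPKM or more in both libraries 2 were higher and 2 lower. In the Notch list Mfng and Nrarp were higher, at 1.02 and 4.17 and at 4.16 and 9.42, and Notch1 lower. Of 28 guidance genes 3 were higher and 4 lower, the latter including Plxnd1, an endothelial semaphorin receptor, at 70.6 and 19.6. The 7 Hox members, a list drawn up after the values were seen, belong to the A and B clusters and pattern the neck and hindbrain region. Hoxa5, Hoxa4 and Hoxa2 were listed at 0 at E10.5. Hoxb2 was at 0.419 and 2.15 FPKM, Hoxb3 at 0.203 and 1.304 and Hoxb4 at 0.0766 and 1.18. All 7 were below 1 FPKM at E10.5 and were members only through E13.5, so that their direction was fixed by the filter. None was above 2.24 FPKM in either library, and 1 of the 7 stayed past 1 centered on length.

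Respiratory chain genes were higher in small steps on the deposited scale. Of 82 nuclear-encoded respiratory chain and ATP synthase members 80 had a difference above 0 and 9 were higher by 1 or more, with a median of 0.60, but centered on length the median was 0.10, with 1 higher and 1 lower. These transcripts are short, with a median of 686.5 nt. Ndufa12, a complex I subunit, was at 15.6 and 126 FPKM, a difference of 2.93 that remained at 2.37 on the centered scale, Cox6a2, the muscle isoform of a cytochrome oxidase subunit, at 76.0 and 199.8 and Cox6c at 434 and 1024. For cytosolic ribosomal proteins 13 of 77 were higher and 2 lower, with a median of 0.38 that became -0.13 centered on length, and for mitochondrial ribosomal proteins 2 of 75 were higher, with a median of 0.48 that became -0.01. In fatty acid oxidation Eci1 was higher, at 33.0 and 86.7, and Lpl lower among 28, while Acadm was at 81.9 and 135. Idh2 was the 1 citric acid cycle member past 1, at 380 and 827. Of 26 glycolysis members Ldhb, at 79.7 and 173, and Pygb, at 50.5 and 111, were higher, and Slc2a1, the fetal glucose transporter, was at 239 and 142. Hif3a and Epas1 were the hypoxia-related members below -1, at 12.3 and 3.803 and at 6.67 and 2.32.

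In the list of energy transfer and metabolic regulators the mature-muscle genes did not share a direction. Ckm, muscle creatine kinase, was at 29.9 and 58.8 FPKM, Mb, myoglobin, at 278 and 228 and Ckmt2 was lower as given above. Ankrd1, a stress-responsive muscle gene, was higher, at 214 and 532, as was the joined Esrra/Prdx5 locus, and Esrrg, an orphan receptor of mitochondrial genes, was lower, at 25.04 and 10.2. Antioxidant genes included Mt3 at 0.777 and 9.87 and Sepp1, a selenium carrier, at 44.0 and 98.6. Among lipid genes Apoe was at 103 and 281, Plin2, of lipid droplets, at 21.2 and 44.8 and Scd1, a desaturase, at 6.17 and 1.86. Of 22 immediate early and heat shock members 3 were higher and 3 lower, with a median of 0.23 that was 0.05 with median-of-ratios scaling and -0.04 with equal sums. Among immediate early genes, which respond within minutes to handling of tissue, Ier3 was higher, at 8.75 and 20.4, as was Jund, at 14.6 and 30.6. Lower were Fos, at 16.6 and 3.70, and Egr1, at 8.44 and 1.55, while Jun and Junb had differences of 0.22 and -0.45. The chaperone gene Hspa8 was higher, at 106 and 341, and Hsph1 lower, at 31.0 and 9.11. None of 17 splicing regulators and none of 26 chromatin regulators was higher. Mbnl3, at 11.3 and 4.04, and Nova1, at 4.46 and 1.43, were lower among the former, and Arid1a, a BAF complex subunit, at 14.9 and 3.93, and Tet3 at 7.91 and 2.77 among the latter. Over all members 6.23% were higher and 5.13% lower. In lists this small the counts lie near those shares.

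Some markers of neighboring tissues were measured. Of 20 liver genes 9 were members, 4 of them only through E13.5, with a summed level over all 20 of 19.5 FPKM at E10.5 and 51.7 at E13.5, and 3 were listed at 0 at E10.5. Alb was at 0.119 and 2.20, Apoa2 at 0.475 and 4.51 and Afp at 5.36 and 10.7. Of 24 nerve, glia and neural crest genes 8 were members, with sums of 32.9 and 50.9, and Stmn2, of growing axons, was at 0.742 and 4.66 while Sox10 was at 0.0532 and 0.253. Of 16 skeletal muscle genes 4 were members, with sums of 54.4 and 65.7 and a median difference of -0.34. Tnni2, a fast troponin I, was higher, at 17.5 and 51.0, and Mylpf, a fast light chain, lower, at 29.9 and 8.69. Their defining factors were near 0, with Myod1 listed at 0 at E10.5 and at 0.0755 at E13.5. The 12 lung and foregut genes summed to 6.05 and 7.503 FPKM, with Nkx2-1 listed at 0 in both, and the 8 pharyngeal gland genes to 2.39 and 3.15, with Foxn1 listed at 0 in both. Their part in the differences given above was not tested. Among sex-linked genes, the Y-linked Eif2s3y was at 51.9 and 59.9 and Kdm5d at 8.71 and 11.1. The locus of Xist, the noncoding RNA that silences an X chromosome in female cells, was at 15.7 FPKM at E10.5 and 0.144 at E13.5, and at 0.0891 in the adult library. The sex of the embryos is not stated, and the part of this difference in the others, including that of the X-linked Mid1, was not tested. The 408 X-linked members had a median of 0.13.

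**Figure D5:**
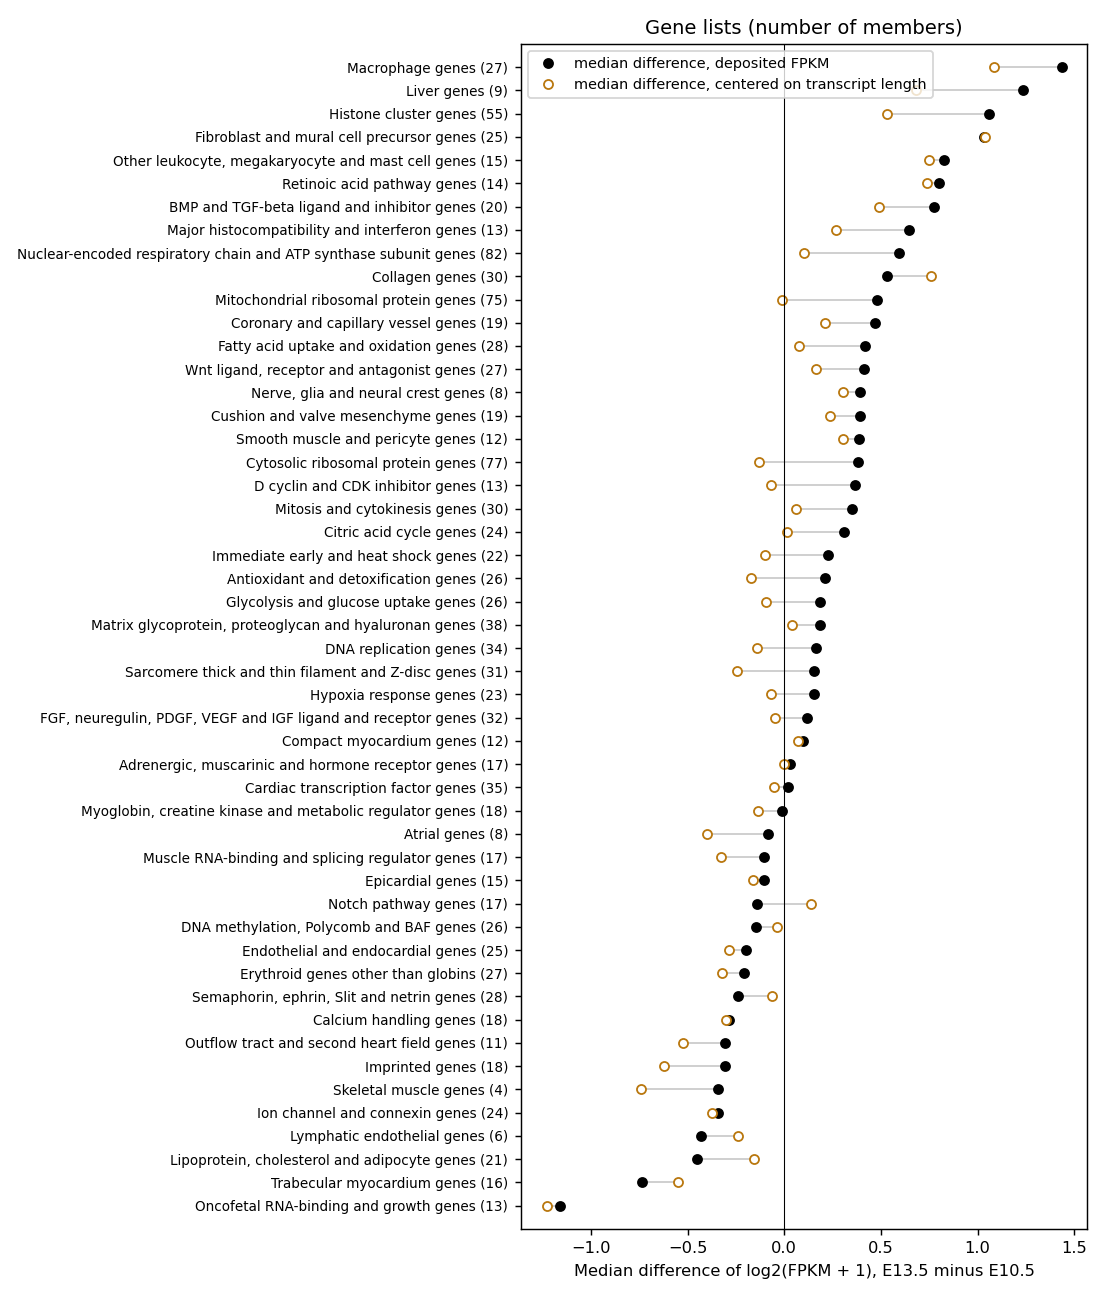
Median difference of log2(FPKM + 1), E13.5 minus E10.5, over the members of each gene list on the deposited scale (filled points) and centered on transcript length (open points), with the number of members in parentheses. On the deposited scale macrophage genes stand highest and oncofetal genes lowest, fibroblast genes keep their median of 1.03 to 1.04 on both scales, and the respiratory chain and ribosomal lists move to near 0 once centered.

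The highest members were much the same at both stages. The 10 highest at E10.5 were Myl2, Actc1, Hbb-y, Eif4a2, Myl7, Tnni1, the joined Rpl41/Zc3h10 locus, Myl4, Eef1a1 and Mest, between 7790 and 2074 FPKM, and at E13.5 Tpm1 and Nppa, at 3343 and 2385, stood in place of Myl7 and Mest. The 10 highest of each library held 9.65% of the FPKM of the members at E10.5 and 12.6% at E13.5. Eif4a2, a translation initiation factor gene whose locus also hosts small nucleolar RNAs, was at 2579 and 5550.

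The adult ventricle gave a readout that chose none of these loci. Of the higher members 73.5% reached 1 FPKM in the adult and of the lower members 80.5%, against 88.1% over all members. Some genes of both directions were nearly silent there, with Crabp1 at 0.0641 FPKM and Cthrc1 at 0.585 among the higher and Hapln1 at 0.101 and Lin28b at 0.346 among the lower. Others were far above both embryonic stages, with Lpl at 1116 and Ckmt2 at 1531 FPKM, both lower at E13.5 than at E10.5, and C1qb at 51.0.

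Of the 11876 members 580 reached 1 FPKM only at E13.5 and 268 only at E10.5, and the filter fixed the direction of their differences. Among the other 11028 members 518 were higher and 532 lower. Few members at the edge of the 1 FPKM threshold were called. Of 96 members whose higher value lay between 1 and 1.1 FPKM, 3 had a difference of 1 or more, and of 111 loci just outside, between 0.9 and 1 FPKM, the largest difference was 0.99 in size, as the scale allows no more. A transcript of 1 kb at 1 FPKM stood for roughly 13.6 fragments in the E10.5 and 25.8 in the E13.5 library, as read from the steps of low values, and 5 higher and 3 lower members rest on fewer than 20 fragments in both libraries. These depths are approximate.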

How the data were processed

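Gene expression was measured by total RNA sequencing of mouse heart ventricle, with 1 library per stage, and only the E10.5 and E13.5 libraries were compared. Per the labels and the study's methods, reads were processed with TopHat2, Bowtie and Cufflinks against mm10, with further version numbers not given in the sources used here, and the authors deposited FPKM per assembled locus. Because FPKM are not counts and there are no replicates, no test was run. Protein-coding loci were those whose nearest reference was a coding RefSeq transcript matched exactly, kept at 1 FPKM or more in either library. Differences are of log2(FPKM + 1), and the length-centered difference subtracts the median of the locus's length bin (10 bins). The steps were tested on simulated data.

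The members and gene lists were chosen with earlier results of these data known, and 5 of the 60 lists were added after the values were seen. Named were the 20 largest and 20 most negative single-gene loci, members listed at 0 in 1 library, list members past 1, the 5 highest in a list and the 10 highest in each library. Other list members named for their known role were chosen after their values were seen. Of 1548 listed symbols 1541 were matched, 12 of them by an older name. A few list members are not reported here by name. Lists under 4 members are given by their members only. Promoter windows came from RefSeq (GRCm38.p6). Depth was estimated from the steps between low FPKM values, at about 13.6 and 25.8 fragments per kilobase at 1 FPKM for E10.5 and E13.5. Altogether 12 alternatives were tried, of which 2 were added after seeing the data. Python 3.11.15 with numpy 2.4.6, pandas 2.3.3, scipy 1.17.1 and matplotlib 3.10.9 was used.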

Additional observations from a re-analysis of the deposited data

How the results depend on the processing

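No paired analysis was possible because only 1 library represents a stage, and for the same reason none could be left out. Relative medians below are a list's median minus that of all members. Median-of-ratios scaling moved the median over members to 0.000598. Equal sums without globin and mitochondrial loci gave 437 members higher, 1102 lower and a median of -0.0941, which reversed its sign. A pseudocount of 0.1 gave 1147 higher, a median of 0.20 and relative medians of 2.55 for macrophage and 1.79 for other leukocyte genes. A pseudocount of 5 gave 292 higher, 201 lower, a median of 0.12 and a relative median of -0.81 for oncofetal genes. Requiring 1 FPKM in both libraries gave a median of 0.17, and 5 FPKM in either a relative median of 2.31 for macrophage genes, against 1.25 as reported. For the same list it was 0.454 with a pseudocount of 5 and 0.447 with 1 FPKM in both. Without a filter the median was 0.0173, and the relative medians were 0.15 for DNA replication (reversed), 0.33 for mitosis, 0.35 for cytosolic and 0.45 for mitochondrial ribosomal proteins, 0.56 for respiratory chain and -0.11 for splicing regulator genes. Centering on transcript length gave 421 higher, and relative medians of 0.53 for histone, -0.13 for cytosolic (reversed) and -0.0090 for mitochondrial ribosomal proteins (reversed), 0.10 for respiratory chain, 0.76 for collagen and -0.0362 for chromatin genes. For 2 alternatives chosen after seeing the data, centering on GC content gave 455 higher, and centering on length and then GC content gave 426 higher and relative medians of 0.48, -0.12 (reversed), -0.0015 (reversed), 0.0822, 0.75 and -0.0443 for the same 6 lists in that order. The cause was not tested. The other 578 list medians over all alternatives stayed within the order-statistic interval of the list's median over its loci, which is wide for short lists, and 38 of them, in 17 lists, changed sign. With 1 FPKM in both libraries the relative median went from 0.23 to -0.0565 for Wnt, from 0.20 to -0.0327 for smooth muscle, from 0.35 to 0.11 for collagen and from 0.64 to 0.25 for other leukocyte genes, and 5 FPKM in either moved it from 0.21 to 1.05 for cushion and to -0.0328 for collagen genes. With 1 library a stage, depth and stage cannot be told apart, and loci near 1 FPKM rest on few fragments at E10.5.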
